A study of Rattus norvegicus with 170 samples.

Results

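*Foxm1*, *Mybl2*, *E2f1*, *E2f2*, *E2f3*, *E2f7*, *E2f8*, *Lin9*, *Lin54* and *Rbl1* encode transcription factors and cofactors that switch the genes of the cell cycle on and off. These 10 genes were sought by symbol among 24113 genes (27586 transcripts), 9 of them were matched, and *E2f2* was not analysed here. They were described in single islet cells with *Ins1* of 1000 RPM or more, called Ins1-high, by whether the cell held no read of *Ccnb1* (cyclin B1) or 10 RPM or more of it. RPM give a transcript's reads relative to all mapped reads of its cell. They are not divided by transcript length, so levels are compared between cells and not between genes.

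Islets of wild type, 8-week male Sprague Dawley rats were picked by hand and cultured for 48 h with 10% FBS and 5.5 mM glucose, either with 0.1% DMSO, the vehicle, or with 3 μM GNF4877, an aminopyrazine compound. After dispersal, cells were captured singly on Fluidigm C1 chips, and 86 DMSO cells and 84 GNF4877 cells were analysed. No animal, culture or further chip is named for a cell, which makes each treatment a single sample. Cells are no replicates of it, no test was run, and chip, lane and treatment cannot be told apart. Intervals are exact Clopper-Pearson 95% intervals for shares of cells, and where no cell held a read the upper limit is 3 cells of the total. Both cover counting error only.

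Pocket proteins such as p107, the product of *Rbl1*, hold E2F factors and the MuvB core (LIN9, LIN54, LIN37, LIN52 and RBBP4) on promoters of resting cells as the DREAM complex, which keeps cell cycle genes silent. When the cell enters the cycle, activator E2Fs drive genes of DNA replication, and MuvB exchanges its partners for B-MYB (*Mybl2*) and later FOXM1, which drive genes of mitosis. E2F7 and E2F8 are themselves made in late G1 and S phase and repress E2F targets. Adult β-cells are mostly out of the cycle.

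Of the 78 Ins1-high DMSO cells, 77 held no *Ccnb1* read and 1, DMSO cell 46, held 49.4 RPM. Of the 59 Ins1-high GNF4877 cells, 40 held no *Ccnb1* read, 8 held some but under 10 RPM, and 11 held 10 RPM or more, from 19.1 to 912 RPM. The comparisons by *Ccnb1* use a measured value to sort the cells and are descriptions. *Ccnb1* is itself a gene of mitosis, so genes that rise with it differ between the classes through the sorting. Mapped reads per cell had a median of 1583250 in the 11 *Ccnb1*-high GNF4877 cells (661387 to 2171567), 1381746 in the 40 *Ccnb1*-zero GNF4877 cells (324416 to 2011484) and 1240658 in the 77 *Ccnb1*-zero DMSO cells (241604 to 2499138). The DMSO cells had the lower depth and the larger number of genes. A median of 7527, 6913 and 8932 genes per cell was read in these groups, and 5242, 4871 and 6600 genes after each cell was thinned to 100000 reads on listed transcripts. A read in a larger share of DMSO cells is therefore the common case: 80.3% of all genes were read in a smaller share of *Ccnb1*-zero GNF4877 cells than of *Ccnb1*-zero DMSO cells.

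The β-cell label was checked against 8 markers (*Ins1*, *Ins2*, *Iapp*, *Pdx1*, *Nkx6-1*, *Mafa*, *Slc2a2* and *Ucn3*). Their median number read per cell was 7 in the *Ccnb1*-high GNF4877 cells, 6 in the *Ccnb1*-zero GNF4877 cells and 7 in the *Ccnb1*-zero DMSO cells. *Ins1*, *Ins2* and *Iapp* were read in every cell of these groups. In the same order, medians were 36796, 18348 and 35965 RPM for *Ins1*, 10416, 3767 and 12860 RPM for *Ins2*, 4947, 1893 and 686 RPM for *Iapp*, and 4474, 761 and 455 RPM for *Slc2a2*, the glucose transporter. They were 81.5, 22.8 and 136 RPM for *Ucn3*, 31.6, 5.53 and 29.1 RPM for *Pdx1* and 0.595, 0.649 and 6.94 RPM for *Nkx6-1*. *Mafa*, a β-cell transcription factor, had no read in either GNF4877 group and was read in 5 of the 77 DMSO cells. *Pdx1* was read in 9 of 11, 23 of 40 and 66 of 77 cells. Another islet hormone, *Gcg*, *Sst* or *Ppy*, reached 1000 RPM in 1 of the 11, 1 of the 40 and 25 of the 77 cells, so these DMSO cells were more often mixed in their hormones. Its part in the results was not tested, other than by leaving such cells out.

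Markers of mesenchymal cells were high in 1 cell that also held many cycle regulators. DMSO cell 46, the only Ins1-high DMSO cell with 10 RPM of *Ccnb1*, held *Ins1* of 11547 RPM and at the same time read 5 of 5 mesenchymal markers with a summed level of 8595 RPM, of which *Col1a1* had 3470 RPM. The summed level of these markers (*Col1a1*, *Col1a2*, *Col3a1*, *Pdgfrb* and *Pdgfra*) had a median of 0.870 RPM in the other 77 DMSO cells, of which DMSO cell 24 reached 7193 RPM, and did not pass 3.42 RPM in the 11 *Ccnb1*-high GNF4877 cells. Acinar markers had a read of *Cela1* alone in the 11 cells, with *Prss1*, *Cpa1*, *Pnlip* and *Cpb1* at 0, and a sum of at most 4.59 RPM. Endothelial markers had *Pecam1* alone (at most 54.4 RPM), with *Cdh5*, *Kdr*, *Flt1* and *Plvap* at 0. Duct markers, led by *Krt7*, had a median sum of 97.9 RPM in the 11 cells, 168 RPM in the *Ccnb1*-zero GNF4877 cells and 158 RPM in the *Ccnb1*-zero DMSO cells. For immune markers, led by *Cd74*, these were 0.656 RPM (at most 615 RPM), 0.605 RPM (at most 981 RPM) and 0.695 RPM (at most 419 RPM). The part of these markers in the member values was not tested.

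A *Ccnb1*-high GNF4877 cell held reads of 1 to 6 of the 9 members, with a median of 4. The median was 1 in *Ccnb1*-zero GNF4877 cells (0 to 5) and 2 in *Ccnb1*-zero DMSO cells (0 to 6). At least 1 member reached 10 RPM in 10 of the 11 *Ccnb1*-high cells (90.9%, 58.7% to 99.8%), in 12 of the 40 *Ccnb1*-zero GNF4877 cells (30%, 16.6% to 46.5%) and in 44 of the 77 *Ccnb1*-zero DMSO cells (57.1%, 45.4% to 68.4%). With any read counted, 80.3% of all genes and 6 of the 9 members were found in a smaller share of *Ccnb1*-zero cells of GNF4877 than of DMSO. In 23 of the 77 DMSO cells *Lin54* was at 10 RPM or more, and in 11 *Lin9*. At 10 RPM or more a cell held a median of 2, 0 and 1 members in the same order, and the median at equal depth was 2, 0 and 1 as well.

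Mean RPM was at least 2-fold higher in *Ccnb1*-high than in *Ccnb1*-zero GNF4877 cells for 6 of the 9 members (*Foxm1*, *Mybl2*, *E2f1*, *E2f8*, *Lin9* and *Rbl1*), on the scale log2((mean + 1)/(mean + 1)) with a pseudocount of 1 RPM. Of all 15727 genes read in these cells, 15.1% were. Single cells decided 3 of these calls: *Mybl2* was no longer 2-fold higher without GNF4877 cell 17, *Lin9* without GNF4877 cell 36 and *Rbl1* without GNF4877 cell 19. Without GNF4877 cell 50 *E2f7* joined. The same fold in the other direction was met by *Lin54* alone, against 20.9% of all genes. At full depth all 9 members were read in a larger share of the *Ccnb1*-high cells, as were 55.1% of all genes. At 100000 reads per cell *Lin54* was read in a smaller share (1 of 11 against 8 of 39 cells) and *E2f3* in none of either class. Among *Ccnb1*-zero cells, 1 member (*E2f1*) was at least 2-fold higher in GNF4877 than in DMSO (7.47% of 17552 genes), a count that fell to 0 without GNF4877 cell 26 and rose to 2, with *E2f7*, without DMSO cell 21. In that comparison *Foxm1* and *E2f8* were at least 2-fold lower (17.0% of genes), at -2.69 and -1.71. Neither was with a pseudocount of 10 RPM (-0.68 and -0.53) or by the difference of mean log2(RPM + 1) (-0.50 and -0.95). Over all Ins1-high cells, 4 members (*Mybl2*, *E2f1*, *E2f8* and *Rbl1*) were at least 2-fold higher in GNF4877 (8.00% of 17855 genes). By that much 0 were lower (14.5% of genes). The count of higher members was 2 without GNF4877 cell 17 and 2 without GNF4877 cell 31. It was 0 with a pseudocount of 10 RPM and 0 by the difference of mean log2(RPM + 1).

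**Figure D1:**
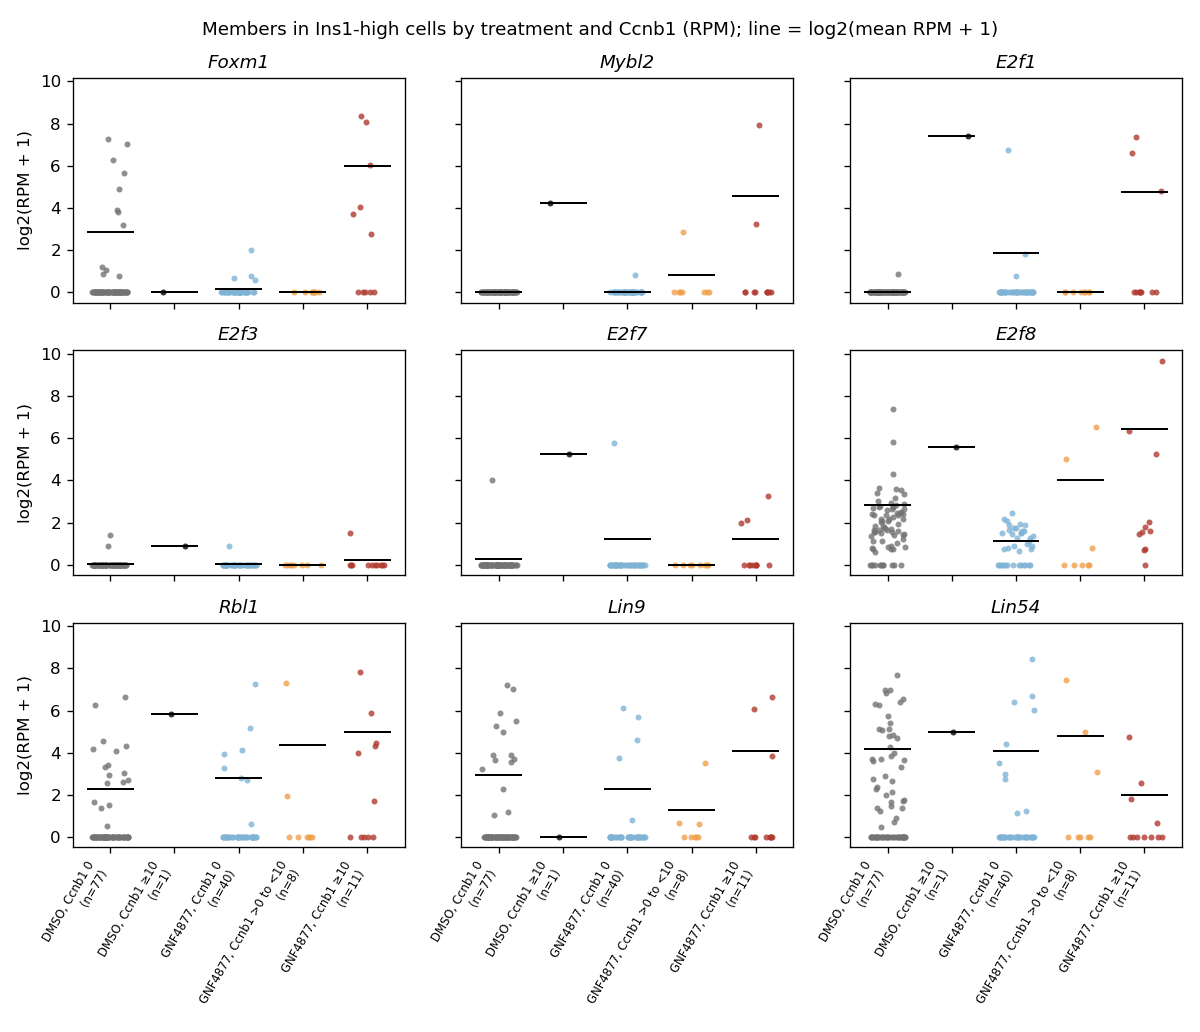
Each point is 1 Ins1-high cell, with its log2(RPM + 1) of the member on the vertical axis and its treatment and *Ccnb1* class on the horizontal axis; lines are log2(mean RPM + 1). *Foxm1* lies at or under 3.08 RPM in every *Ccnb1*-zero GNF4877 cell and reaches 327 RPM in the *Ccnb1*-high cells, while *E2f8* has low reads in most cells of each treatment.

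*Foxm1*, the forkhead factor that drives genes of G2 and mitosis, ranged from 0 to 327 RPM in the 11 *Ccnb1*-high GNF4877 cells, with a median of 5.73 RPM. It was read in 6 of them (54.5%, 23.4% to 83.3%), all with 3 reads or more. In the 40 *Ccnb1*-zero GNF4877 cells it was read in 4 (10.0%, 2.79% to 23.7%), each with 1 read, the highest of them at 3.08 RPM in GNF4877 cell 2, a cell with 3.03% of its mapped reads on listed transcripts. Every *Foxm1* value of 10 RPM or more from the Ins1-high GNF4877 cells therefore came from a *Ccnb1*-high cell. The means were 62.7 and 0.122 RPM, a log2 ratio of 9.01 that was 8.22 without GNF4877 cell 17 and 10.41 without GNF4877 cell 2. With a pseudocount of 1 RPM it was 5.83, and 1.12 at any *Ins1* above 0.

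DMSO cells also held *Foxm1*, with few genes of mitosis beside it. Reads of it were found in 12 of the 77 *Ccnb1*-zero DMSO cells (15.6%, 8.32% to 25.6%), reached 10 RPM in 7 of them and was highest at 153 RPM in DMSO cell 14. These 7 cells held a median of 1 of 31 genes of G2 and mitosis at 10 RPM or more, and at most 2. The 5 GNF4877 cells with *Foxm1* at that level held a median of 24 and at most 29. All 7 were *Ccnb1*-zero and all 5 *Ccnb1*-high, so treatment and *Ccnb1* class cannot be told apart in this contrast. *Mki67* had a read in 1 of the 7 DMSO cells and in 5 of the 5 GNF4877 cells, and *Top2a* in 0 of 7 and 5 of 5. The treatments differed in this over all cells too. *Mki67* had a read in 10 of the 78 Ins1-high DMSO cells and 34 of the 59 Ins1-high GNF4877 cells. For *Top2a* these were 1 of 78 and 48 of 59. At 10 RPM or more *Mki67* was found in 7 of 78 and 12 of 59 cells, and *Top2a* in 1 of 78 and 12 of 59. Of the 7 DMSO cells, 3 also held another islet hormone at 1000 RPM or more. The mean of 6.22 RPM over *Ccnb1*-zero DMSO cells was above the 0.122 RPM of *Ccnb1*-zero GNF4877 cells (log2 ratio of GNF4877 over DMSO -5.67, and -7.08 without GNF4877 cell 2). With a pseudocount of 1 RPM this log2 ratio was -2.69, and it turned to 1.86 at any *Ins1* above 0.

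*Mybl2* encodes B-MYB, which joins MuvB at the promoters of late cycle genes, and it was rare. In the *Ccnb1*-high GNF4877 cells it was read in 2 of 11 (18.2%, 2.28% to 51.8%), at 242 RPM in cell 17 and 8.44 RPM in cell 96, and the other 9 cells were at 0. Of the 40 *Ccnb1*-zero GNF4877 cells 1 held a single read. In the 77 *Ccnb1*-zero DMSO cells it was read in 0, which allows a share of up to 3.90%. The log2 ratio of *Ccnb1*-high over *Ccnb1*-zero GNF4877 cells was 10.19, with a 95% counting interval of 8.15 to 15.94 for the pooled reads (518 against 1), and cell 17 carried 96.6% of the summed RPM. Without cell 17 the ratio was 5.44. On the scale with a pseudocount of 1 RPM it was 4.54, and 0.86 without cell 17, which is under 2-fold, as was the 0.99 by the difference of mean log2(RPM + 1). Without GNF4877 cell 65, which held the single read, it was at least 8.59.

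*E2f1*, an activator E2F, was read in 3 of the 11 *Ccnb1*-high GNF4877 cells (27.3%, 6.02% to 60.97%), at 165 RPM in cell 17, 95.6 RPM in cell 31 and 27.02 RPM in cell 96, and the median was 0. In these 3 cells *E2f8* was also above 30 RPM. Among the 40 *Ccnb1*-zero GNF4877 cells it was read in 3 (7.5%, 1.57% to 20.4%), of which GNF4877 cell 26 held 105 RPM and 97.0% of the summed RPM. That cell had no *Ccnb1* read but held 22 of 30 E2F targets of G1 and S phase at 10 RPM or more, against a median of 5 in *Ccnb1*-zero GNF4877 cells. The log2 ratio between the classes was 3.27, 2.18 without cell 17 and 8.31 without cell 26.

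In DMSO cells *E2f1* was almost unread. Among the 77 *Ccnb1*-zero cells 1 held a single read, DMSO cell 12, and DMSO cell 46 held 168 RPM. The log2 ratio of *Ccnb1*-zero GNF4877 over *Ccnb1*-zero DMSO cells was 7.95, with a counting interval of 5.64 to 13.45 (156 reads against 1), and it was 2.91 without GNF4877 cell 26 and at least 6.39 without DMSO cell 12. Over all Ins1-high cells the ratio was 1.63, but 9.26 without DMSO cell 46, the cell with mesenchymal markers, and 0.88 without GNF4877 cell 17.

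*E2f3*, the other activator E2F measured, stood near the limit of detection throughout. Reads were found in 1 of the 11, 1 of the 40 and 2 of the 77 cells, with a highest value of 1.86 RPM in GNF4877 cell 63, and its reads summed to 3, 1 and 3. The log2 ratio of *Ccnb1*-high over *Ccnb1*-zero GNF4877 cells was 2.94. Its counting interval of -0.44 to 8.92, which covers counting error only, spans both directions, so no difference was detectable at this depth.

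*E2f7* and *E2f8*, the atypical repressors, differed from each other. *E2f7* was read in 3 of the 11 *Ccnb1*-high GNF4877 cells (27.3%, 6.02% to 60.97%), at 8.69 RPM in cell 63, 3.34 RPM in cell 17 and 2.98 RPM in cell 36. Of the 40 *Ccnb1*-zero GNF4877 cells 1 held it, GNF4877 cell 50, at 53.9 RPM, a cell that also held *Ppy* of 41535 RPM and 15 of 30 E2F targets at 10 RPM or more. The means were 1.36 and 1.35 RPM, with a log2 ratio of 0.02 that was at least 4.53 without cell 50 and -1.09 without cell 63. In DMSO it was read in cell 46, at 37.0 RPM, and in cell 21, at 15.1 RPM, where *Gcg* was 184144 RPM, and both cells held over 20 of the 30 E2F targets at 10 RPM or more.

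*E2f8* was read in most *Ccnb1*-high and *Ccnb1*-zero cells of GNF4877 and most *Ccnb1*-zero cells of DMSO, and in 3 of the 8 GNF4877 cells between. Its median was 2.05 RPM in the 11 *Ccnb1*-high GNF4877 cells (0 to 815 RPM), 0.917 RPM in the 40 *Ccnb1*-zero GNF4877 cells (0 to 4.51 RPM) and 2.52 RPM in the 77 *Ccnb1*-zero DMSO cells (0 to 168 RPM). It was read in 10 (90.9%), 26 (65%) and 66 (85.7%) of these cells, but at 10 RPM or more in 3 (27.3%, 6.02% to 60.97%), 0 and 6 (7.79%, 2.91% to 16.2%). A low level thus lay under most cells and a high level in a few. The 3 *Ccnb1*-high cells were 31 (815 RPM), 96 (79.4 RPM) and 17 (36.7 RPM), and 2 GNF4877 cells with *Ccnb1* under 10 RPM, 95 (91.9 RPM) and 37 (31.1 RPM), also passed 10 RPM.

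The mean of *E2f8* rested on 1 cell. GNF4877 cell 31 carried 86.4% of the summed RPM of the 11 cells and also held *Gcg* of 37011 RPM. The log2 ratio of *Ccnb1*-high over *Ccnb1*-zero cells was 6.15 and 3.41 without it. Over all Ins1-high cells the log2 ratio of GNF4877 over DMSO was 1.49 with cell 31 and -0.38 without it. Between *Ccnb1*-zero cells the log2 ratio of GNF4877 over DMSO was -2.36, and -1.75 without DMSO cell 54, which held the 168 RPM. The table lists 4 transcripts of *E2f8*, and its reads in *Ccnb1*-zero DMSO cells were spread over them as 25.6%, 25.3%, 23.8% and 25.3%, and the transcripts were summed.

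*Rbl1*, which encodes the pocket protein p107 of DREAM and is itself an E2F target, ranged from 0 to 227 RPM in the 11 *Ccnb1*-high GNF4877 cells, with a median of 2.29 RPM. Reads of it were found in 6 of them (54.5%, 23.4% to 83.3%), in 8 of the 40 *Ccnb1*-zero GNF4877 cells (20%, 9.05% to 35.6%) and in 17 of the 77 *Ccnb1*-zero DMSO cells (22.1%, 13.4% to 32.98%). The shares of the *Ccnb1*-zero cells were thus alike in the treatments, and their intervals overlap with that of the *Ccnb1*-high cells. At 10 RPM or more it was found in 5, 4 and 6 cells. The means of the GNF4877 classes were 31.1 and 5.99 RPM, a log2 ratio of 2.38 that was 0.95 without cell 19, which held the 227 RPM, and 3.81 without GNF4877 cell 80, a *Ccnb1*-zero cell with 153 RPM. With the pseudocount it was 2.20, and 0.84 without cell 19.

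*Lin9*, a scaffold subunit of MuvB, was read in 3 of the 11 *Ccnb1*-high GNF4877 cells (27.3%, 6.02% to 60.97%), at 97.6 RPM in cell 36, 65.6 RPM in cell 25 and 13.7 RPM in cell 19. It was read in 5 of the 40 *Ccnb1*-zero GNF4877 cells (12.5%, 4.19% to 26.8%) and in 15 of the 77 *Ccnb1*-zero DMSO cells (19.5%, 11.3% to 30.1%), with highest values of 68.4 and 149 RPM. Most DMSO cells that held it held few cycle genes. The 11 DMSO cells with 10 RPM or more held a median of 7 E2F targets and 0 genes of G2 and mitosis at that level, the same medians as the other Ins1-high DMSO cells, with DMSO cell 21 highest at 23 and 3. Of the 11, 7 also held another islet hormone at 1000 RPM or more. The log2 ratio between the GNF4877 classes was 2.04, 1.02 without cell 36 and 2.84 without cell 26. With a pseudocount of 1 RPM it was 1.801, and under 2-fold without cell 36 (0.87), with a pseudocount of 10 RPM (0.91) and by the difference of mean log2(RPM + 1) (0.98).

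*Lin54*, the DNA-binding subunit of MuvB that recognises the CHR element, was the member whose mean was lower in *Ccnb1*-high cells. It ranged from 0 to 25.6 RPM in the 11 cells (mean 3.05 RPM), from 0 to 345 RPM in the 40 *Ccnb1*-zero GNF4877 cells (mean 16.1 RPM) and from 0 to 206 RPM in the 77 *Ccnb1*-zero DMSO cells (mean 17.2 RPM). The share of cells with any read was 4 of 11 (36.4%, 10.9% to 69.2%) in the *Ccnb1*-high and 10 of 40 (25%, 12.7% to 41.2%) in the *Ccnb1*-zero cells of GNF4877. The order turned at equal depth, with 1 of 11 against 8 of 39, and at 10 RPM or more, with 1 of 11 against 6 of 40. Among *Ccnb1*-zero DMSO cells it was 41 of 77 (53.2%, 41.5% to 64.7%). The log2 ratio between the GNF4877 classes was -2.39, -4.32 without cell 25 and -1.32 without GNF4877 cell 56, which held the 345 RPM. With a pseudocount of 1 RPM it was -2.07. It was -0.30 with *Ccnb1*-high at any read, -0.20 by the difference of mean log2(RPM + 1) and -0.997, just within 2-fold, with a pseudocount of 10 RPM. Between *Ccnb1*-zero cells the means were close (log2 ratio of GNF4877 over DMSO -0.10, and -1.17 without cell 56) while the share was lower in GNF4877, and at equal depth it was 8 of 39 against 29 of 75 cells.

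**Figure D2:**
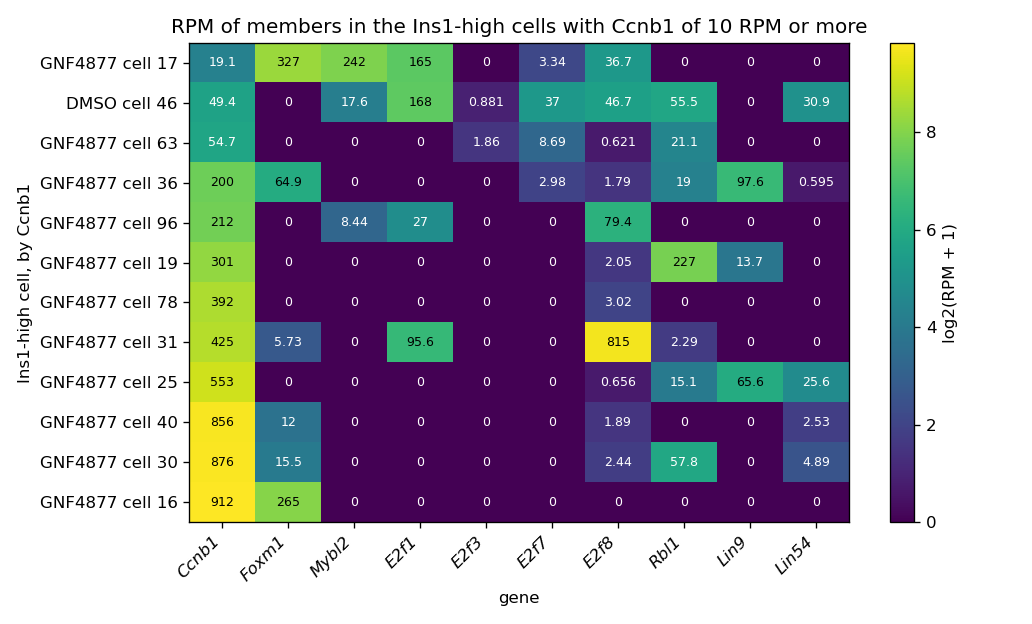
Each row is 1 of the 12 Ins1-high cells with *Ccnb1* of 10 RPM or more (11 GNF4877 cells and DMSO cell 46), sorted by *Ccnb1*; columns are genes, numbers are RPM and colour is log2(RPM + 1). *E2f1* is present in 4 of these cells and *Foxm1* in 6, and the cell with the lowest *Ccnb1*, 19.1 RPM, holds the highest *Foxm1*, 327 RPM.

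The *Ccnb1*-high cells did not hold the members in 1 pattern. GNF4877 cell 17, with the lowest *Ccnb1* of the group (19.1 RPM), held *Foxm1*, *Mybl2*, *E2f1* and *E2f8* above 30 RPM, with *Pcna* at 1238 RPM and *Mki67* at 824 RPM. GNF4877 cell 16, with the highest (912 RPM), held *Foxm1* at 265 RPM and no read of any other member. The 3 cells with the highest *Ccnb1*, 16, 30 and 40, held *Foxm1* at 265, 15.5 and 12 RPM and no read of *E2f1*, *Mybl2* or *E2f7*. GNF4877 cell 78 held 3.02 RPM of *E2f8* alone, and it had the smallest number of genes read of the 11 cells, 4294. At 10 RPM or more *E2f1* and *E2f8* shared 3 of the Ins1-high GNF4877 cells (3 of 4 and 3 of 5), *Lin9* and *Rbl1* shared 5 (5 of 8 and 5 of 10), and *Foxm1* and *E2f1* shared 1 (1 of 5 and 1 of 4).

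DMSO cell 46 held reads of 7 of the 9 members, the most of any Ins1-high cell, as were its 10713 genes read (8069 at 100000 reads, against a median of 6600 in *Ccnb1*-zero DMSO cells). Of the members it held *E2f1* at 168 RPM, *Rbl1* at 55.5 RPM, *E2f8* at 46.7 RPM, *E2f7* at 37.0 RPM, *Lin54* at 30.9 RPM and *Mybl2* at 17.6 RPM. It held no read of *Foxm1* or *Lin9*. It also held 27 of 30 E2F targets and 24 of 31 genes of G2 and mitosis at 10 RPM or more. Since it read 5 of 5 mesenchymal markers, the member values of this cell are not those of a cell with β-cell markers alone.

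The 8 GNF4877 cells with *Ccnb1* above 0 and under 10 RPM held a median of 1 member (0 to 5), as the *Ccnb1*-zero cells did, and at least 1 member reached 10 RPM in 5 of them (62.5%, 24.5% to 91.5%), among them *Lin54* at 173 RPM in cell 55 and *Rbl1* at 156 RPM in cell 32. *Foxm1*, *E2f1*, *E2f3* and *E2f7* had no read in any of the 8, which allows a share of up to 37.5%. GNF4877 cell 95, with 6.85 RPM of *Ccnb1*, stood apart. It held 5 members, with *E2f8* at 91.9 RPM and *Mybl2* at 6.28 RPM, and it held *Mki67* at 793 RPM and *Top2a* at 1075 RPM.

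Of the 12 partners of these factors, 4 were at least 2-fold higher in *Ccnb1*-high than in *Ccnb1*-zero GNF4877 cells and 3 were lower, against 15.1% and 20.9% of all genes, with a list median of 0.80 on the log2((mean + 1)/(mean + 1)) scale. The median was 2.20 for the 9 members and -0.08 for all genes. Of the MuvB core, *Lin52* (406 against 188 mean RPM) and *Rbbp4* (141 against 97.3) had reads in all 11 *Ccnb1*-high cells and in 36 and 39 of the 40 *Ccnb1*-zero cells. The log2 ratio of *Lin52*, 1 of the 4, was 1.11 and without GNF4877 cell 25 0.99, under 2-fold. *Lin37* averaged 52.9 against 26.8 RPM (log2 ratio 0.98, and 0.25 without GNF4877 cell 25) and was read in 7 of 11 and 20 of 40 cells.

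Among the E2F partners, the repressor *E2f5* averaged 29.4 against 0.147 RPM, from 3 of the 11 cells and 1 of the 40 (log2 ratio 7.65, 6.23 without GNF4877 cell 16 and at least 8.94 without GNF4877 cell 24). The DP subunit *Tfdp2* averaged 26.7 against 0.0678 RPM, and GNF4877 cell 17 held 94.1% of its sum in the 11 cells (log2 ratio 8.62, 4.67 without that cell and 10.82 without GNF4877 cell 44). *Tfdp1*, the other DP subunit, averaged 98.4 against 50.3 RPM, and *E2f6* 28.4 against 17.7 RPM. The direction of *E2f6* depended on single cells, with a log2 ratio of 0.68 that was -0.81 without GNF4877 cell 96 and 1.93 without GNF4877 cell 61. *E2f4*, the E2F of the DREAM complex, averaged 9.58 against 43.7 RPM and was read in 5 of 11 and 18 of 40 cells, and 67.5% of its sum in the 40 came from GNF4877 cell 86 (log2 ratio -2.19, -0.60 without that cell and -3.41 without GNF4877 cell 25). Among the pocket proteins, *Rbl2* (p130) averaged 40.96 against 6.91 RPM (log2 ratio 2.57, and 1.65 without GNF4877 cell 96) and *Rb1* 24.1 against 19.3 RPM (log2 ratio 0.33, -0.28 without GNF4877 cell 31 and 1.15 without GNF4877 cell 90). *Mybl1* had no read in the 11 cells, which allows a share of up to 27.3%, and averaged 5.81 RPM in the 40, of which GNF4877 cell 74 held 99.7%. *Dyrk1a*, the kinase whose phosphorylation of LIN52 assembles DREAM, was read in 1 of the 11 cells, with a single read, and in 7 of the 40 (17.5%, 7.34% to 32.8%), where it averaged 15.9 RPM with 49.6% of the sum in GNF4877 cell 81.

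Of the pocket proteins, *Rbl2* and *Rb1* were read in a smaller share of *Ccnb1*-zero cells in GNF4877, as were 80.3% of all genes. Reads of *Rbl2* were found in 16 of the 40 cells of GNF4877 (40%, 24.9% to 56.7%) against 68 of the 77 of DMSO (88.3%, 78.97% to 94.5%). For *Rb1* these were 12 (30%, 16.6% to 46.5%) and 59 (76.6%, 65.6% to 85.5%). At equal depth *Rbl2* was read in 4 of 39 against 58 of 75 cells and *Rb1* in 9 of 39 against 40 of 75 cells. Their mean log2 ratios of GNF4877 over DMSO were -2.25 and -1.53, the latter -2.35 without GNF4877 cell 90. *Rbl1*, by contrast, was read in alike shares, as given above. The smaller number of genes read per GNF4877 cell moves with these shares, and its part in them was not tested.

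Of 30 E2F targets of G1 and S phase, 28 were at least 2-fold higher in *Ccnb1*-high GNF4877 cells and 1 was lower, against 15.1% and 20.9% of all genes. The list median was 2.49. The highest were *Rrm2* (391 against 1.86 mean RPM), the subunit of ribonucleotide reductase made in S phase, *Uhrf1* (87.3 RPM against no read in 40 cells) and *Orc1* (65.2 against 0.673 RPM), which reached 10 RPM in 10, 2 and 3 of the 11 cells. The lowest were *Tyms* (43.2 against 20.2 RPM), *Gins2* (206 against 110 RPM) and the replication licensing factor *Cdt1* (2.32 against 8.09 RPM). All 31 targets of MYBL2, FOXM1 and MuvB were at least 2-fold higher, against 15.1% of all genes, with a median of 5.62. *Ccnb1*, which sorted the cells, is a gene of mitosis too, so a higher level of such genes goes with the sorting. *Top2a* (865 against 2.94 RPM), *Cdc20* (283 against 0.295 RPM) and *Nusap1* (247 against 0.291 RPM) stood highest, and *Cks2* (50.1 against 9.54 RPM), *Cdc25c* (36.1 against 10.2 RPM) and *Kif20b* (114 against 34.5 RPM) lowest.

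Per cell, the *Ccnb1*-high GNF4877 cells held a median of 20 of the 30 E2F targets (3 to 24) and 16 of the 31 genes of G2 and mitosis (2 to 29) at 10 RPM or more. The *Ccnb1*-zero GNF4877 cells held 5 (0 to 22) and 1 (0 to 10), and the *Ccnb1*-zero DMSO cells 7 (0 to 23) and 0 (0 to 3).

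Upstream of the E2Fs, 3 of 12 genes of G1 control were at least 2-fold higher in *Ccnb1*-high GNF4877 cells and 1 was lower, against 15.1% and 20.9% of all genes, with a list median of 0.12. The highest were *Cdkn2c* (10.4 against 1.46 mean RPM), *Cdk2* (311 against 87.9 RPM) and *Cdkn1b* (12.2 against 4.99 RPM). The lowest were *Cdk4* (257 against 297 RPM), *Cdkn1a* (0.101 against 0.772 RPM) and *Myc* (0.0741 against 5.39 RPM).

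Among *Ccnb1*-zero cells, 11 of 30 E2F targets were at least 2-fold higher in GNF4877 and 2 were lower, with a median of 0.61, and of the genes of G2 and mitosis 16 of 31 were higher and 3 lower, with a median of 1.16. Few cells held these 16 at 10 RPM or more. Other than *Cks2* (11 cells), *Aurka* and *Mki67* (4 cells each), they reached it in 1 to 3 of the 40 GNF4877 cells. GNF4877 cell 26 held 10 of the 31 genes at that level. With any read counted, all 16 were found in a larger share of the GNF4877 cells. The 16 were picked by their higher mean in these same cells, so their larger share is no separate result. Of all genes, not picked in that way, 80.3% were found in a smaller share. *Top2a* was read in 29 of the 40 GNF4877 and 0 of the 77 DMSO cells. For *Prc1* these were 26 and 3, for *Mki67* 18 and 9, and for *Ttk* 2 and 0. At 10 RPM or more they were 1 and 0, 3 and 0, 4 and 6, and 1 and 0. Low *Top2a* was also read in GNF4877 cells with *Ins1* under 1000 RPM, such as cell 52 (0.705 RPM, *Gcg* of 539847 RPM). GNF4877 cell 57, with 2.65% of its mapped reads on listed transcripts, held 1.57 RPM, and cell 8 held none. The source of these low reads was not tested. The median of all genes was -0.11 and that of the 9 members -0.01. Of the 12 partners, 1 was higher and 5 were lower, and of the 12 genes of G1 control 1 and 4. Of all genes 7.47% were higher and 17.0% lower. Over all Ins1-high cells, 24 of 30 E2F targets and 31 of 31 genes of G2 and mitosis were at least 2-fold higher in GNF4877 and 0 of either list were lower. Of the 12 partners 2 were higher and 3 lower, and of the 12 genes of G1 control 1 and 4. Of all genes 8.00% were higher and 14.5% lower.

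The genes most like a member were sought for *Foxm1*, *Mybl2*, *E2f1*, *E2f7* and *E2f8*, as chosen beforehand, and not for *E2f3*, *Lin9*, *Lin54* and *Rbl1*. The measure was Pearson's r of log2(RPM + 1) over the 59 Ins1-high GNF4877 cells, all of 1 sample, among 10820 genes read in 10 cells or more. For *Foxm1* they were *Arhgap11a* (r = 0.87, Spearman's rho = 0.62), *Ttk* (0.85, 0.57), *Kif23* (0.83, 0.61), *Nusap1* (0.81, 0.50) and *Cdc20* (0.81, 0.45). Without the 2 cells farthest from the median of *Foxm1*, r was 0.79, 0.69, 0.76, 0.81 and 0.74. For *E2f8* they were *Melk* (r = 0.68, rho = 0.34), *Fanci* (0.66, 0.23), *Slc25a10* (0.64, 0.37), *LOC691979* (0.62, 0.30) and *Ttpal* (0.62, 0.34), and without 2 cells r lay between 0.40 and 0.54, so the relation of *E2f8* rested largely on those cells. *Mybl2*, *E2f1* and *E2f7* were read in 4, 6 and 4 of the 59 cells, too few for this measure.

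The promoters were also searched for the letters E2F and MuvB are known to read. RefSeq promoters of GRCr8, 250 bases before to 50 after the start of a gene, were matched for 6 of the 10 members (*E2f3*, *E2f7*, *Lin9*, *Lin54*, *Mybl2* and *Rbl1*), with *Foxm1*, *E2f1*, *E2f2* and *E2f8* missing. The E2F motif was searched as TTTCCCGC, TTTCGCGC, TTTGCCGC and TTTGGCGC and the CHR motif as TTTGAA, its variant spelled TTCGAA or the further variant spelled TTTAAA, on both strands. An E2F motif was found in 2.14% of all 33469 promoters, in 2 of the 6 members, in 14 of 25 promoters of E2F targets (56%) and in 1 of 28 promoters of the genes of G2 and mitosis (3.57%). A CHR motif was found in 29.4% of all promoters, in 3 of the 6 members, in 8 of the 25 (32%) and in 25 of the 28 (89.3%). Of the partners, 2 of 8 promoters held the E2F motif and 4 of 8 the CHR motif, and of the upstream genes 0 and 1 of 7. A match is a run of letters and not a measured site. The target lists were drawn up as targets of these factors, so the motifs in their promoters are no result of these cells.

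The 100 bases before the start are shown for *Rbl1* and *E2f3*, the members with an E2F motif, and for *Lin9*, which held the CHR motif at more than 1 place, with motifs in capitals. In *Rbl1* (minus strand, chr3:166289377-166289476) the capitals mark TTTCGCGC from base -18. In *E2f3* (plus strand, chr17:34810316-34810415) they mark TTTGAA from base -90 and, from base -78, TTTCCCGC on the opposite strand. In *Lin9* (plus strand, chr13:94906703-94906802) they mark TTCGAA from base -58, which reads the same on both strands, and the first bases of TTTGAA from base -3, which runs past the start.
*Rbl1*: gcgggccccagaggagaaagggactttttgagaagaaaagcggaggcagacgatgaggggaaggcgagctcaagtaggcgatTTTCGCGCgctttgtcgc
*E2f3*: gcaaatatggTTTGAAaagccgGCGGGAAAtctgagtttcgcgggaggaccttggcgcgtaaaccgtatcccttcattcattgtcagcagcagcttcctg
*Lin9*: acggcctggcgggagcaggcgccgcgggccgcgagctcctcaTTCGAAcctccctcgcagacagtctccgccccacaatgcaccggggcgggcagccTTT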

How the data were processed

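Single cells from rat islets were profiled by RNA sequencing. According to the submitters' processing notes CASAVA 1.8.2, BWA 0.5.9 and SAMtools 0.1.19 were used. The authors deposited RPM for each transcript, with the mapped reads of a cell as the base. A mouse transcriptome is named in their methods, yet the transcripts of the table are those of rat RefSeq.

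Values of 0.01 (69.7% of all values) were set to 0 and rows of a symbol were summed. Whole reads were worked out from the lowest value of each cell (100% of values up to 20 reads within 0.1 of a whole read). *Tfdp1* was matched by its accession in the RefSeq gene table of GRCr8. Reads shared by near-identical transcripts cannot be separated.

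Ratios are of mean RPM, with no count model and no test, as each treatment is 1 sample. A group at 0 was set at 3 reads over the group. Counting intervals of ratios are exact 95% intervals for the reads pooled over the cells, so a ratio of mean RPM can lie outside. They cover counting error only, and reads copied by PCR are not independent molecules. Thinning used 100000 reads on listed transcripts per cell and left out 3 Ins1-high cells with fewer, 2 DMSO and 1 GNF4877. Doublets were not removed.

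All members and partners were named, and of each other list the 3 highest and 3 lowest genes by log2((mean + 1)/(mean + 1)) in *Ccnb1*-high over *Ccnb1*-zero GNF4877 cells. The members and lists were chosen with earlier results of these data known, and single cells are named after their values were seen. Thresholds, pseudocount, scale, depth, hormones, rows and single cells were varied. The ratio step was tested on simulated cells. Tables were handled with pandas 2.3.3 and numpy 2.4.6 in Python 3.11.15, intervals came from scipy 1.17.1, and plots from matplotlib 3.10.9.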

Additional observations from a re-analysis of the deposited data

Results flagged for a closer look

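Cells with *Ins1* under 1000 RPM enter no comparison of the report, other than the alternative with any *Ins1* above 0. There were 25 such cells in GNF4877 and 8 in DMSO, and 4 members reached 10 RPM in a GNF4877 cell of this kind and stood higher there than in any of the 8 DMSO cells. Below 10 RPM, *E2f1* (3.98 against 0 RPM) and *Rbl1* (8.68 against 5.23 RPM) also had the higher maximum in GNF4877. The maximum was higher in DMSO for *Lin9* (63.6 against 16.4 RPM), *Lin54* (13.1 against 2.34 RPM) and *E2f8* (8.88 against 8.42 RPM). Maxima of 25 and of 8 cells are not on equal terms. *Foxm1* was at 1374 RPM in GNF4877 cell 9, a cell with *Gcg* of 170678 RPM and no *Ccnb1* read, and at most 0.871 RPM in the DMSO cells. No other member had a read in cell 9. *Top2a* stood at 2.08 RPM and *Mki67* at 27.7 RPM, and 7 of 31 genes of G2 and mitosis reached 10 RPM. *Mybl2* (110.7 RPM) and *E2f3* (14.65 RPM) were highest in GNF4877 cell 15, both against 0 in the DMSO cells. That cell held *Ccnb1* at 608 RPM, *Foxm1* at 28.2 RPM and a summed level of 12620 RPM of mesenchymal markers, *Col1a1* leading with 5803 RPM. *E2f7* was at 67.17 RPM in GNF4877 cell 20, with *Gcg* of 357885 RPM and *Ccnb1* of 287 RPM, against at most 16.4 RPM. These differences were not tested.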

How the results depend on the processing

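No paired analysis was possible because the numbers in the titles only name cells and each treatment is a single sample. The count of 6 members at least 2-fold higher in *Ccnb1*-high over *Ccnb1*-zero GNF4877 cells lay between 4 and 8 under every alternative run, and between 5 and 7 with single cells left out. The count of 1 member for *Ccnb1*-zero GNF4877 over DMSO cells was 2 at an *Ins1* minimum of 10000 RPM, 2 at any *Ins1* above 0, 2 with a pseudocount of 0.1 RPM, 2 at 100000 reads, 0 with a pseudocount of 10 RPM, 0 by the difference of mean log2(RPM + 1), and 0 to 2 with single cells left out. The count of 4 members over all Ins1-high cells was 2 at any *Ins1* above 0, 0 with a pseudocount of 10 RPM, 0 by the difference of mean log2(RPM + 1), and 2 to 5 with single cells left out. The cause was not tested.

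The median members read per *Ccnb1*-high GNF4877, *Ccnb1*-zero GNF4877 and *Ccnb1*-zero DMSO cell (4, 1 and 2) was 2, 0 and 1 at 10 RPM or more, and 2, 0 and 1 at 100000 reads. Without *E2f8*, an alternative chosen after seeing the data, it was 1 for the DMSO cells. Leaving out cells with under 25% of reads on listed transcripts, also chosen after seeing the data, moved no count or median.

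On the scale log2((mean + 1)/(mean + 1)), *Foxm1* in *Ccnb1*-zero GNF4877 over DMSO cells turned from -2.69 to 1.86 at any *Ins1* above 0, which lets in GNF4877 cell 9, and in *Ccnb1*-high over *Ccnb1*-zero GNF4877 cells it went from 5.83 to 1.12. *E2f8* over all Ins1-high cells turned from 1.36 to -0.57 by the difference of mean log2(RPM + 1), to -0.35 without cells holding another hormone and to -0.32 without GNF4877 cell 31, which held the highest value; with single cells left out it lay between -0.32 and 1.82. Among values under 2-fold, *Lin9* without cells holding another hormone turned from -0.68 to 0.97 in *Ccnb1*-zero GNF4877 over DMSO cells and from -0.18 to 1.53 over all Ins1-high cells, and *E2f7* over all Ins1-high cells from 0.38 to -0.42. *E2f7* in *Ccnb1*-high over *Ccnb1*-zero GNF4877 cells turned from 0.01 to -0.79 at 100000 reads. With 1 cell left out, *Ccnb1*-zero GNF4877 over DMSO cells turned from 0.97 to -0.26 for *E2f7* and from 0.50 to -0.62 for *Rbl1*, and *E2f7* over all Ins1-high cells to -0.41. Values near 1 read per cell are limited by depth.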
